A study of Rattus norvegicus with 12 samples.

Results

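The comparison set rat astrocyte cultures that had received SHP siRNA, interferon-γ and the compound GW together against cultures that had received control siRNA alone. It rests on 6 of the 12 arrays of the series, 3 titled IFN-γ -siSHP-GW (siSHP_IFNg_GW) and 3 titled si-con (siCon), each numbered 1, 2 and 3, and all 6 were used. Primary astrocytes came from the cortex of Sprague-Dawley rats 1 day old, and serum-free medium had been used against microglia and meningeal cells. The other 6 arrays carried control siRNA with interferon-γ (siCon_IFNg) or control siRNA with interferon-γ and GW (siCon_IFNg_GW), with 3 arrays each, and treatment lasted 3 h in all treated groups. No group used here held SHP siRNA without treatment, and none held GW without interferon-γ. The effects of the siRNA, the interferon and GW on the change from siCon therefore cannot be told apart from these 6 arrays. The labels name the compound only as GW. The labels do not say whether the 3 arrays of a group came from different cultures. The p-values therefore cover only array-to-array spread, part of which may be technical.

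Interferon-γ is a cytokine that acts on its receptor through the JAK kinases, and it induces Irf1 and, partly through it, chemokines, GTPases and antigen presentation genes. In astrocytes this programme is known for the chemokines that draw T cells and monocytes. SHP, or small heterodimer partner, is a nuclear receptor without a DNA-binding domain that acts as a corepressor and is encoded by Nr0b2. Immediate-early genes such as Fos, Jun and Egr1 are transcription factor genes that many stimuli induce within minutes through MAP kinases, without new protein synthesis.

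Values are log2 expression, 1 per gene and array, for 18166 genes, and a change of 1 is a doubling. Genes on or under 5.34, the 95th percentile of 1344 olfactory and vomeronasal receptor genes, were taken as near background. In every group the array numbered 1 differed most: principal component 1, with 46.5% of the variance, set it apart from numbers 2 and 3. Same-numbered arrays deviated together from their group means, with correlations of 0.63, 0.48 and 0.43 between siSHP_IFNg_GW and siCon for numbers 1, 2 and 3. With number 1 apart in every group, numbers 2 and 3 deviate the other way, so these correlations do not show a pairing of numbers 2 and 3. Because number 1 stood apart, each result below was also computed with the replicate number as a block and without the arrays numbered 1.

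The siRNA target could not be checked on these arrays. Nr0b2 had levels of 4.82, 5.05 and 5.01 on siCon replicates 1, 2 and 3 and of 5.12, 4.94 and 4.81 on siSHP_IFNg_GW replicates 1, 2 and 3. It had 4.72, 5.09 and 4.59 in siCon_IFNg and 4.70, 4.78 and 4.91 in siCon_IFNg_GW. All 12 values lay under the background threshold and the groups overlapped, so neither a knockdown nor its lack was measurable. The markers of the labelled cell type were present. All 12 measured astrocyte markers, Gfap among them, were above background, and the log2 of their summed level was 14.27 to 14.63 in siCon and 14.36 to 14.47 in siSHP_IFNg_GW. All 18 measured microglia markers were above background as well, so the changes below cannot be assigned to astrocytes alone.

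In all, 218 genes passed the threshold between siSHP_IFNg_GW and siCon (limma, Benjamini-Hochberg adjusted p under 0.05 over 18166 genes), or 1.2% of the genes tested. Of these, 120 were higher (0.661%) and 98 lower (0.539%). The largest rises were those of the chemokine genes Cxcl9 and Cxcl11, the immediate-early gene Egr2, the matricellular protein gene Ccn1, the protease inhibitor gene Tfpi2 and Fos. The falls were smaller, and the largest were in Evi2a, Arl11, Rgs18 and Gpr34. With replicate number as a block, 1570 genes passed (8.64%), 600 higher (3.3%) and 970 lower (5.34%), with all 218 among them. The split is sensitive to scaling: with arrays centred on their medians 109 genes passed, 75 higher and 34 lower, which makes 68.8% higher in place of 55.0%. On the 6 arrays alone 100 passed, 90 higher and 10 lower, with 69 of the 218 among them. Without replicate 1 in all groups 1937 passed (10.7%; 1022 or 5.63% higher and 915 or 5.04% lower), and without replicate 2 or without replicate 3 the count was 0, with 956 and 1065 at an unadjusted p under 0.05. Leaving out 1 array at a time gave 152, 28 and 30 genes without siSHP_IFNg_GW replicates 1, 2 and 3, and 142, 21 and 41 without siCon replicates 1, 2 and 3. Of the 218, 19 passed in each of those 6 fits, 17 of them higher and 2 lower. Of the 64 genes that passed and that the naming rule took, 14 did so in each of them (Irf1, Ccl2, Jun, Atf3, Klf6, Mafk, Nrip1, Rnd1, Ccn1, Tifa, Hivep1, Noct, Arl11 and Gpr34), and each of the others lost its call without at least 1 array. Cntf, Cry1, Csf1, Csrnp1, Cx3cl1, Dusp8, Gadd45b and Gstm5 passed in 0 of those 6 fits. The change itself differed between number 1 and numbers 2 and 3 in 282 genes (limma; 1.55%), with 96 (0.528%) higher and 186 (1.02%) lower in number 1, and 12 of the 218 were among these. That count was 132 and 82 without siSHP_IFNg_GW replicates 2 and 3 and 106 and 98 without siCon replicates 2 and 3.

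**Figure D1:**
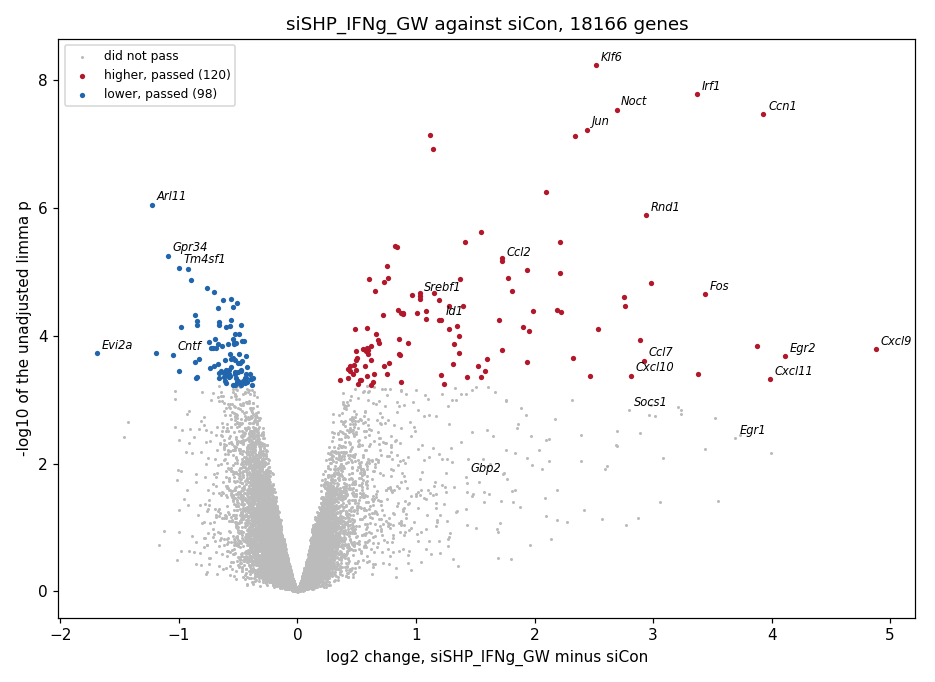
Log2 change between siSHP_IFNg_GW and siCon (x axis) against the -log10 of the unadjusted limma p (y axis), 1 point per gene for 18166 genes, with the 120 higher and 98 lower genes that passed the adjusted threshold in red and blue. Rises reach 4.88 in Cxcl9, while the largest fall is -1.69 in Evi2a.

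Irf1, a transcription factor that interferon-γ induces early, rose and passed in all 6 fits that leave out 1 array. Its level was 9.30, 8.70 and 8.60 on siCon replicates 1, 2 and 3 and 12.04, 12.34 and 12.35 on siSHP_IFNg_GW replicates 1, 2 and 3. Each treated array was higher than every control array. Irf1 rose 10.4-fold (log2 3.37, SE 0.23, 3 arrays in each group, limma adjusted p = 1.53e-04). Its change was 2.74 within number 1 and 3.69 over numbers 2 and 3, and that difference passed (limma adjusted p = 0.038). Cish, a feedback inhibitor of cytokine receptors, rose by 1.37 ± 0.25 (SE; adjusted p = 0.029), from 6.27, 5.82 and 6.03 to 7.11, 7.13 and 7.98, without overlap. Socs1, the feedback inhibitor of JAK kinases that interferon-γ induces, had 6.79, 6.29 and 6.45 in siCon and 7.85, 9.70 and 10.37 in siSHP_IFNg_GW. Its groups did not overlap either, but replicate 1 of siSHP_IFNg_GW lay far under replicates 2 and 3. The change of 2.80 ± 0.66 (SE) did not pass (limma adjusted p = 0.078), and it passed with the block (adjusted p = 0.014). Socs3, an inhibitor of gp130 receptors, had 2.12 (adjusted p = 0.18, and 0.0098 with the block). Over the 19 measured genes of interferon signalling the median change was 0.92, against -0.03 over all genes. Of these 2 rose, Irf1 and Cish. With the block 7 were higher and without replicate 1 there were 13, none lower in either fit. Of all genes 0.661% were called higher without the block, 3.3% with it and 5.63% without replicate 1. The counts of the lists here and below are to be read against these shares.

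Of the chemokines, 6 of 22 measured genes rose and 0 fell, where 0.661% and 0.539% of all genes did. The median change over the 22 was 1.59. Cxcl9, Cxcl10 and Cxcl11 encode the ligands of CXCR3, a receptor of activated T cells. Cxcl9 had 7.04, 5.47 and 5.37 on siCon replicates 1, 2 and 3 and 9.04, 11.60 and 11.89 on siSHP_IFNg_GW replicates 1, 2 and 3. Its lowest treated array was above its highest control array, and the controls numbered 2 and 3 lay close to background. Cxcl9 rose 29.5-fold (log2 4.88, SE 0.87, n = 3, limma adjusted p = 0.027). Cxcl10 had 10.52, 8.86 and 8.59 and 11.56, 12.36 and 12.48 in the same order, and it rose by 2.81 ± 0.56 (SE; adjusted p = 0.042). Cxcl11, with 8.47, 6.13 and 5.78 and 9.58, 11.21 and 11.54, rose by 3.99 ± 0.81 (adjusted p = 0.044). In these 3 genes the control array numbered 1 was the highest control and the treated array numbered 1 the lowest treated array. The changes within number 1 were 2.00, 1.04 and 1.11, against 6.13, 3.50 and 5.08 within number 2 and 6.52, 3.89 and 5.76 within number 3. Their calls were not secure: they passed in 2, 1 and 2 of the 6 fits that leave out 1 array, with changes of 4.36 to 5.79, 2.44 to 3.41 and 3.48 to 4.82.

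The other 3 chemokines that rose were Ccl2, Ccl7 and Cx3cl1. Ccl2, which acts on CCR2, had 10.83, 9.91 and 10.04 in siCon and 11.94, 11.98 and 12.03 in siSHP_IFNg_GW. The 3 treated arrays lay close together, above all controls, and Ccl2 rose 3.31-fold (log2 1.73, SE 0.21, n = 3, limma adjusted p = 0.0064), passing in all 6 fits without 1 array. Ccl2 changed by 1.11 within number 1 and by 2.03 over numbers 2 and 3, a difference that passed (limma adjusted p = 0.038). Its neighbour in function Ccl7 rose by 2.92 ± 0.54 (adjusted p = 0.032), from 9.71, 7.66 and 7.80 to 10.79, 11.46 and 11.69, and Cx3cl1, the membrane-bound ligand of the microglial receptor CX3CR1, rose by 1.60 ± 0.30 (adjusted p = 0.032). Ccl3, Ccl4 and Ccl12 had 2.14, 2.88 and 1.58 and did not pass (adjusted p = 0.61, 0.45 and 0.3), and Ccl5 had -0.42 (adjusted p = 0.96). Csf1, the growth factor of macrophages and microglia, rose by 1.52 ± 0.29 (adjusted p = 0.036), with 9.76, 9.27 and 9.55 in siCon and 11.38, 10.92 and 10.84 in siSHP_IFNg_GW. The calls of Ccl7, Cx3cl1 and Csf1 were not secure either, as they passed in 1, 0 and 0 of the 6 fits without 1 array. Cd40, a costimulatory receptor, rose by 1.15 ± 0.16 (adjusted p = 0.011). Csf1 and Cd40 were the only 2 called of the 31 measured cytokines and effectors, whose median was 0.32. With the block 12 of the 31 were higher and 3 lower. Among them Icam1, an adhesion molecule, had 1.93 (adjusted p = 0.0019 with the block), Cd274, the ligand of the checkpoint receptor PD-1, had 3.23 (adjusted p = 0.033 with the block), and Nos2, the inducible nitric oxide synthase, had 1.62 (adjusted p = 0.016 with the block). In the fit without the block their adjusted p was 0.085, 0.084 and 0.19. For Nos2 2 of the 3 control values lay under background, so the size of its difference is uncertain.

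**Figure D2:**
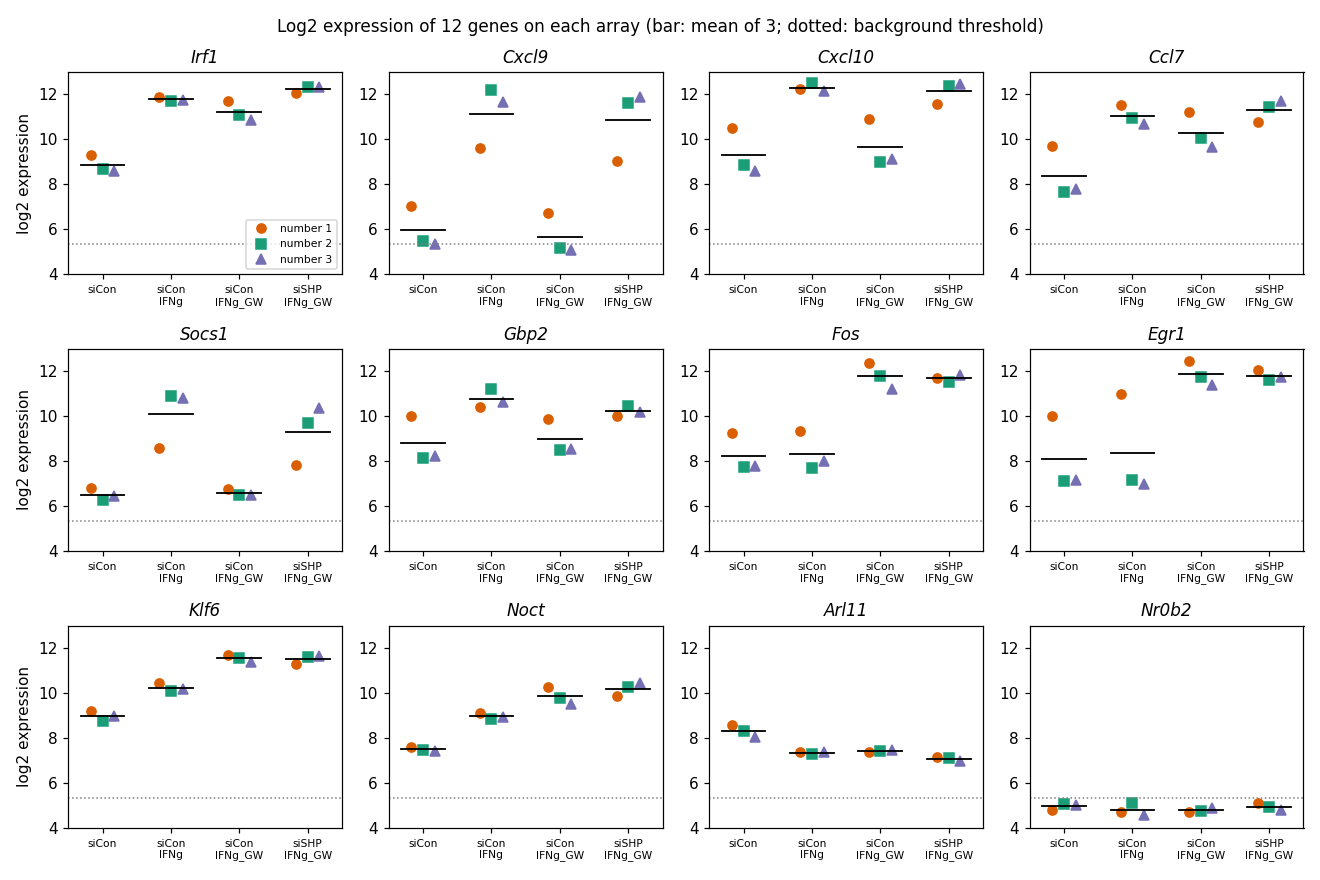
Log2 expression (y axis) of 12 genes on each of the 12 arrays, by group (x axis) and with 1 symbol per replicate number; bars are means of 3 and the dotted line is the background threshold of 5.34. In Irf1, Klf6 and Noct the 3 siSHP_IFNg_GW arrays lie together above siCon, in Gbp2 and Egr1 the siCon array numbered 1 lies well above the other controls, and Nr0b2 stays under the dotted line.

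The promoters of Irf1 and of the CXCR3 ligand genes Cxcl9, Cxcl10 and Cxcl11 are shown because these genes are among the 15 largest rises. Each window runs from 250 bases before to 50 after the RefSeq start in assembly GRCr8, 5′ to 3′ on the gene's strand, and matches are in capitals. The motifs searched on both strands were GAS (TTCNNNGAA, the gamma-activated site), ISRE (GAAA, any 2 bases and GAAA again, bound by interferon regulatory factors), AP-1 (TGANTCA), CRE (TGACGTCA) and, by name, CArG (bound by SRF) and the κB site (bound by NF-κB). No matches in the windows shown overlapped each other. The Irf1 window held a GAS match, TTCCCCGAA, and a κB match, GGGGAATCCC. The Cxcl9 window held a GAS match, TTCTCTGAA, which begins 32 bases after the start, and no ISRE or κB match. The Cxcl10 window held an ISRE, a κB and an AP-1 match, GAAAGTGAAA, GGGAAATTCC and TGAGTCA. The Cxcl11 window held GAS, AP-1 and κB matches, TTCTAGGAA, TGAGTCA and GGGAAATTCC.
Irf1 (chr10:38417685-38417984, plus strand): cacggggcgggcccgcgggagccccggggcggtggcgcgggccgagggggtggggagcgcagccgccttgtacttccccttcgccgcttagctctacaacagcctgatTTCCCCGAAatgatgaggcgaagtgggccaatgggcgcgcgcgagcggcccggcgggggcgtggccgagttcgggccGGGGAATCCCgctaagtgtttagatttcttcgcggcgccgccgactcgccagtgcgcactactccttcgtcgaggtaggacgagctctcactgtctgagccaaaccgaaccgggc
Cxcl9 (chr14:16006916-16007215, plus strand): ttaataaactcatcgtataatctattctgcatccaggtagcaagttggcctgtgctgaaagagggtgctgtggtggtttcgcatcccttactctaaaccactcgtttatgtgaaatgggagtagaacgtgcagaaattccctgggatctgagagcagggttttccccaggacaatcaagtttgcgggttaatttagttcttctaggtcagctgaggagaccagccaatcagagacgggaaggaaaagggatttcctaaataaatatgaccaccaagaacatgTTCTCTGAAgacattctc
Cxcl10 (chr14:15988816-15989115, plus strand): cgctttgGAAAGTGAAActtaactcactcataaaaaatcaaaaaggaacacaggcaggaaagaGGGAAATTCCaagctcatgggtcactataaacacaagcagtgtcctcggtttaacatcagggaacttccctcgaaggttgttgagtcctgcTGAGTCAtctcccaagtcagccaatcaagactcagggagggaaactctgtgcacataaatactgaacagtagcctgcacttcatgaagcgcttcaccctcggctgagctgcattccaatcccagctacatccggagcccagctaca
Cxcl11 (chr14:15973478-15973777, plus strand): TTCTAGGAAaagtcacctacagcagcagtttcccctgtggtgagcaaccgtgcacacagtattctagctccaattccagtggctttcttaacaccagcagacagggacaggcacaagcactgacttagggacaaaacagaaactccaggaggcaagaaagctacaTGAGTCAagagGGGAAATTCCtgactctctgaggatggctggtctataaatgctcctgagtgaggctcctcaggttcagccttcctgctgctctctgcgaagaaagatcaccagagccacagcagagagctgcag

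Such matches are frequent, and a match is a description and not a bound site. Of the 14503 measured genes with a promoter in the table, 7.83% held a GAS, 3.41% an ISRE and 4.59% a κB match. Among the 98 of 120 raised genes with a promoter the shares were 8.16%, 2.04% and 8.16%, which are 8, 2 and 8 genes. Among the 81 of 98 lowered genes with a promoter 9 held a GAS (11.1%), 0 an ISRE and 1 a κB match. Over all 33469 promoters of the table the GAS, ISRE and κB shares were 8.87%, 3.92% and 4.18%.

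The interferon-inducible GTPases, which act against intracellular pathogens, moved with the replicate number. Gbp2 had 10.01, 8.12 and 8.23 on siCon replicates 1, 2 and 3 and 10.01, 10.45 and 10.18 on siSHP_IFNg_GW replicates 1, 2 and 3. Its control array numbered 1 was as high as its treated array of that number, while the arrays numbered 2 and 3 differed by 2.32 and 1.95. The change of 1.42 ± 0.50 (SE) did not pass (limma adjusted p = 0.24; 0.078 with the block), and without replicate 1 it was 2.14 (adjusted p = 2.83e-04). Gbp5 had 1.94 (adjusted p = 0.17, and 0.008 with the block) and Ifi47 2.06 (adjusted p = 0.21, and 0.1 with the block). All 9 measured GTPases had positive changes with a median of 1.73, and 0 passed. With the block 2 were higher (3.3% of all genes), and without replicate 1 all 9 were (5.63% of all genes). Their median change was -0.09 within number 1, 2.58 within number 2 and 2.57 within number 3.

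The antiviral genes also moved with the number. Parp14, an ADP-ribosyltransferase of the interferon response, had 9.50, 8.49 and 8.32 in siCon and 9.42, 10.16 and 10.20 in siSHP_IFNg_GW, so that the array numbered 1 was high among the controls and lowest among the treated. Its change of 1.16 did not pass (adjusted p = 0.26), and without replicate 1 it was 1.77 (adjusted p = 4.70e-05). Over the 31 measured antiviral genes the median was 0.86 and 0 passed. With the block 3 were higher and 2 lower, where 3.3% and 5.34% of all genes were. Without replicate 1 there were 25 and 3, where 5.63% and 5.04% of all genes were. Ifitm2, a membrane protein that restricts viral entry, had -0.53 (limma adjusted p = 0.22, and 0.0035 with the block). The list's medians within numbers 1, 2 and 3 were -0.10, 1.13 and 1.62.

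Antigen presentation genes as a list had changes of both signs. The median over 22 was -0.15, 8 changes were positive, 14 negative, and 0 passed. Of all genes 57.6% had negative changes. Tap1, a subunit of the peptide transporter for MHC class I, had 8.95, 7.55 and 7.54 in siCon and 8.89, 10.20 and 10.22 in siSHP_IFNg_GW, a change of 1.76 (adjusted p = 0.15) and, without replicate 1, of 2.67 (adjusted p = 3.71e-06). Nlrc5, the class I transactivator, had 1.84 (adjusted p = 0.16) and 2.78 without replicate 1 (adjusted p = 6.33e-05). The immunoproteasome subunit Psmb10 went the other way, with -0.58 (adjusted p = 0.13, and 0.047 with the block). With the block 2 of the 22 were lower and 0 higher, where 5.34% and 3.3% of all genes were. Without replicate 1 there were 5 higher and 1 lower, where 5.63% and 5.04% of all genes were.

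**Figure D3:**
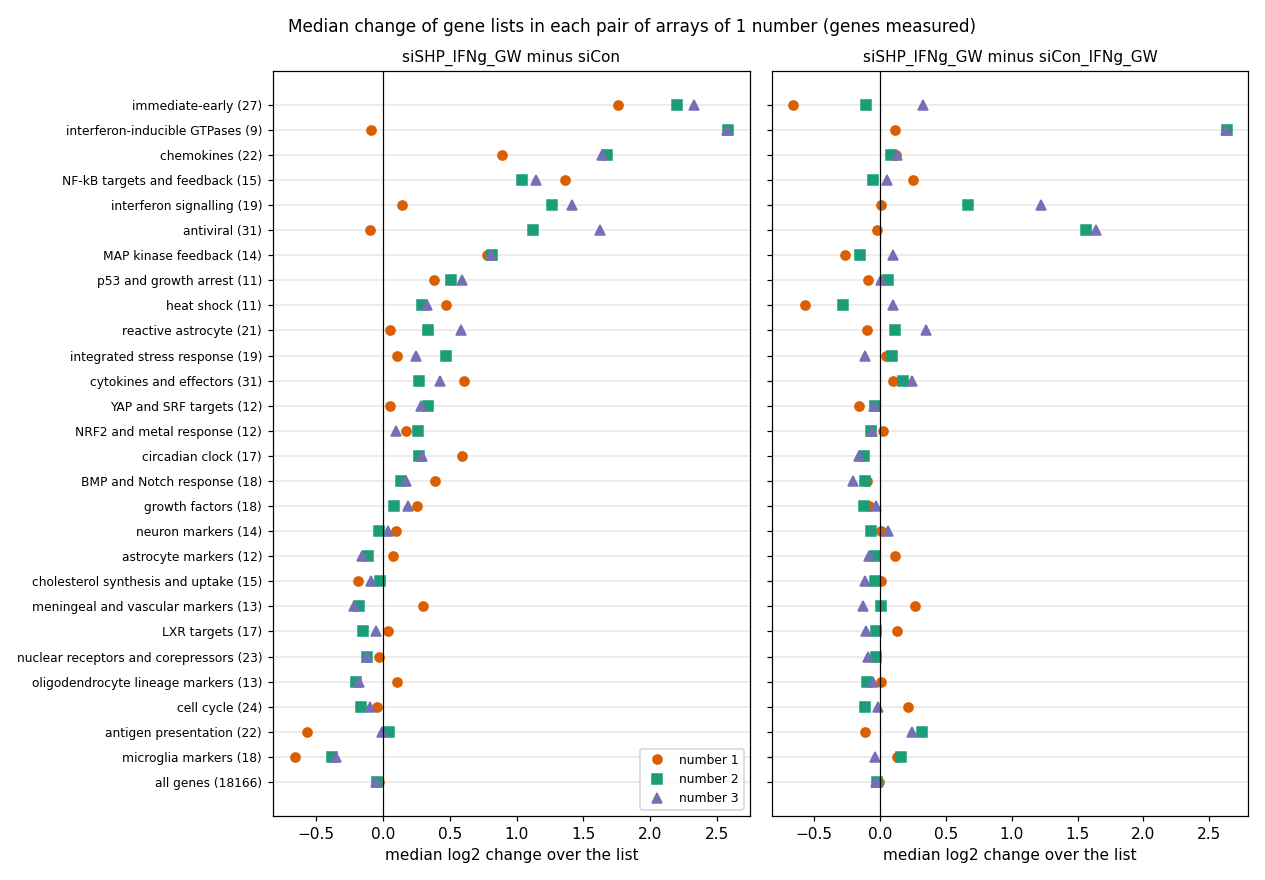
Median log2 change (x axis) over each gene list (y axis, with the number of genes measured) within the arrays of number 1, 2 and 3, for siSHP_IFNg_GW minus siCon (left) and siSHP_IFNg_GW minus siCon_IFNg_GW (right). On the left the immediate-early genes lie at 1.76, 2.20 and 2.33 in the 3 numbers, whereas the GTPases lie at -0.09 in number 1 and at 2.58 and 2.57 in numbers 2 and 3.

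The immediate-early genes were the list with the most called members, and its medians were 1.76, 2.20 and 2.33 within numbers 1, 2 and 3. All 27 measured members had positive changes, with a median of 1.97, and in 25 of them the 3 treated arrays lay above the 3 controls, a state that 7.16% of all genes had. In all 7 rose, 24 were higher with the block and 26 without replicate 1. Fos, an AP-1 subunit, had 9.24, 7.74 and 7.77 on siCon replicates 1, 2 and 3 and 11.70, 11.53 and 11.83 on siSHP_IFNg_GW replicates 1, 2 and 3. The treated arrays lay close together, while the control array numbered 1 lay well above the other controls. Fos rose 10.8-fold (log2 3.44, SE 0.48, n = 3, limma adjusted p = 0.011). Its partner Jun, with 9.19, 8.88 and 8.92 and 11.26, 11.49 and 11.56, rose by 2.44 ± 0.19 (adjusted p = 1.95e-04). Atf3, a stress-induced member of the same family, went from 8.07, 7.97 and 8.06 to 10.36, 10.37 and 10.39 and rose by 2.34 ± 0.18 (adjusted p = 1.95e-04). In Jun and Atf3 the spread within each group was small against the change, and both passed in all 6 fits without 1 array.

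Klf6, a zinc finger factor of the same list, had the smallest p of the comparison: its levels were 9.22, 8.76 and 8.99 in siCon and 11.28, 11.58 and 11.66 in siSHP_IFNg_GW, and it rose 5.74-fold (log2 2.52, SE 0.15, n = 3, limma adjusted p = 1.06e-04). Egr2, with 7.48, 5.14 and 4.86 and 9.68, 9.83 and 10.29, rose by 4.11 ± 0.75 (adjusted p = 0.03), although 2 of its 3 control values lay under background and the size of the change is uncertain. Egr1, which many growth signals induce, had 10.03, 7.14 and 7.17 in siCon, with the array numbered 1 far above the others, and 12.04, 11.62 and 11.75 in siSHP_IFNg_GW. Its change of 3.69 ± 1.02 did not pass (adjusted p = 0.12); it passed with the block (adjusted p = 0.0073). Mafk, a small Maf protein that pairs with larger leucine zipper factors, rose by 1.12 ± 0.09 (adjusted p = 1.95e-04). Csrnp1, a nuclear protein gene outside the list, rose by 3.38 ± 0.67 (adjusted p = 0.041), from 6.18, 5.53 and 5.23 to 9.43, 8.66 and 9.00, with 1 control value under background.

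The promoters of Egr2 and Klf6 are shown for the early response, with CArG matches in capitals, CCATATATGG in Egr2 and CCTTTAATGG in Klf6. A CArG match was present in 1.37% of the promoters of measured genes and in 3.06% (3 of 98) of those of raised genes. Fos, Jun and Atf3 are named only.
Egr2 (chr20:21054392-21054691, minus strand): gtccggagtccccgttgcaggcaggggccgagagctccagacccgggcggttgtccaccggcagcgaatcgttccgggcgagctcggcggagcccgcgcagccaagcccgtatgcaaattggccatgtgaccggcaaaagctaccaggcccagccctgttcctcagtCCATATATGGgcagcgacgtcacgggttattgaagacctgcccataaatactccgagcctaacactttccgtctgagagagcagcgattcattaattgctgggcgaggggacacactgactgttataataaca
Klf6 (chr17:69458429-69458728, minus strand): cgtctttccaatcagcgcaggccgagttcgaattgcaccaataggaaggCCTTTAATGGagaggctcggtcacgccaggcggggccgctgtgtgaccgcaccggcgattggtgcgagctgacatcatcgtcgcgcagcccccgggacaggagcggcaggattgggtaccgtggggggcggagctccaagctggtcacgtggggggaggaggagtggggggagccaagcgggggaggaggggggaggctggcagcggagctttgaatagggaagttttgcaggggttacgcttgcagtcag

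Of the feedback inhibitors of MAP kinases, 3 rose. Dusp6, a phosphatase of ERK, had 6.99, 7.06 and 6.85 in siCon and 7.91, 8.40 and 8.43 in siSHP_IFNg_GW and rose by 1.28 ± 0.21 (SE, n = 3, limma adjusted p = 0.017). Dusp8, a phosphatase of JNK and p38, rose by 1.73 ± 0.31 (adjusted p = 0.027), and Spry4, an inhibitor of receptor tyrosine kinase signalling, by 1.35 ± 0.22 (adjusted p = 0.017). The list had 14 measured members, with a median of 0.81, and with the block 8 were higher and 0 lower. Rgs16, which ends G protein signals, had 7.76, 7.75 and 8.02 in siCon and 9.81, 11.26 and 11.42 in siSHP_IFNg_GW and rose by 2.99 ± 0.40 (adjusted p = 0.0088). The treated array numbered 1 was the lowest of the 3, and all lay above the controls. Rnd1, a small GTPase that loosens the actin skeleton, rose by 2.94 ± 0.31 (adjusted p = 0.0022), from 5.69, 6.24 and 6.08 to 9.02, 8.61 and 9.21, and passed in all 6 fits without 1 array.

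Ccn1, a matricellular protein gene that YAP and SRF induce, had 8.30, 7.03 and 7.58 in siCon and 11.17, 11.74 and 11.79 in siSHP_IFNg_GW. It rose 15.3-fold (log2 3.93, SE 0.29, n = 3, limma adjusted p = 1.56e-04) and passed in all 6 fits without 1 array. Amotl2 and Lats2, which restrain YAP, rose by 1.78 ± 0.24 and 1.19 ± 0.19 (adjusted p = 0.0083 and 0.015). Of the 12 measured YAP and SRF targets these 3 rose and the median was 0.27. Tagln, a smooth muscle actin-binding protein of the same list, had -0.24 (adjusted p = 0.25). Hbegf, a ligand of the EGF receptor, rose by 1.90 ± 0.31 (adjusted p = 0.017), the only member called of 18 measured growth factors, whose median was 0.17. Gdf15, a stress-induced growth factor, had 7.72, 6.58 and 6.72 in siCon and 10.93, 9.64 and 9.39 in siSHP_IFNg_GW, which did not overlap; its change of 2.98 had an adjusted p of 0.071, and 5.43e-04 with the block. Id1 and Id3, inhibitors of differentiation that BMP signals induce, rose by 1.21 ± 0.19 and 0.88 ± 0.18 (adjusted p = 0.015 and 0.046). Hes1, the Notch target, had 1.65 (adjusted p = 0.12, and 0.0013 with the block). Over the 18 measured BMP and Notch response genes 2 rose, 0 fell and the median was 0.23. With the block 4 were higher and 2 lower, the latter Bambi at -0.31 and Dll1 at -0.38.

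Of 15 measured NF-κB targets and feedback genes 1 rose, Tnfaip2, by 2.32 ± 0.43 (SE, n = 3, limma adjusted p = 0.031). The median was 1.17, with 14 positive changes, and 11 were higher with the block. Birc3, an inhibitor of apoptosis, had 8.42, 7.76 and 7.91 in siCon and 10.91, 9.84 and 9.88 in siSHP_IFNg_GW, with the array numbered 1 highest in both groups and no overlap between them. Its change of 2.17 had an adjusted p of 0.091, and 0.002 with the block. Relb, an NF-κB subunit, had 1.07 (adjusted p = 0.087, and 0.023 with the block). Tifa, an adaptor that leads to NF-κB, rose by 1.42 ± 0.16 (adjusted p = 0.0045), from 6.23, 5.89 and 5.65 to 7.09, 7.38 and 7.55, and Hivep1, a zinc finger factor that binds κB sites, by 1.14 ± 0.09 (adjusted p = 2.70e-04). Both passed in all 6 fits without 1 array.

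Of 11 measured p53 and growth arrest genes 3 rose and 1 fell. With the block 5 were higher and 3 lower, and Ccng1 at -0.51 and Phlda3 at -0.40 were among the lower ones. Gadd45b and Gadd45g, stress sensors that act on the p38 and JNK pathways, rose by 2.47 ± 0.49 and 2.76 ± 0.41 (SE, n = 3, limma adjusted p = 0.043 and 0.013). The stress kinase gene Plk3 rose by 1.95 ± 0.32 (adjusted p = 0.019). Sesn1, a p53 target that restrains mTORC1, fell by 0.84 (adjusted p = 0.017). Chac1, which degrades glutathione and is a target of ATF4, had 8.31, 8.63 and 8.81 in siCon and 9.97, 10.80 and 10.40 in siSHP_IFNg_GW and rose by 1.81 ± 0.25 (adjusted p = 0.011). It was the only 1 called of 19 genes of the integrated stress response, with a median of 0.35. Ppp1r15a, the phosphatase subunit that ends that response, had 2.70 (adjusted p = 0.11, and 0.0024 with the block). Of 11 heat shock genes 0 were called (4 higher with the block), and Hsph1, a co-chaperone, had 0.95 (adjusted p = 0.094, and 0.016 with the block).

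Of the 12 measured NRF2 and metal response genes 2 rose, Mt1 and Slc30a1. Mt1, a metallothionein that binds zinc, had 11.90, 11.88 and 11.89 in siCon and 12.70, 12.66 and 12.59 in siSHP_IFNg_GW, and rose by 0.76 ± 0.10 (SE, n = 3, limma adjusted p = 0.0073). The zinc exporter Slc30a1 rose by 0.66 ± 0.09 (adjusted p = 0.011). The other measured metallothioneins did not pass: Mt2A had 0.08 (adjusted p = 0.85) and Mt3 had -0.32 (adjusted p = 0.83). Hmox1, heme oxygenase, had 0.64 (adjusted p = 0.35), and its control array numbered 1, at 11.04, was as high as its treated arrays.

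Of the 17 measured clock genes 3 rose. Noct, a gene with rhythmic expression, had 7.61, 7.45 and 7.44 in siCon and 9.86, 10.28 and 10.44 in siSHP_IFNg_GW and rose 6.46-fold (log2 2.69, SE 0.19, n = 3, limma adjusted p = 1.56e-04), passing in all 6 fits without 1 array. Nfil3, a repressor of clock output genes, rose by 1.94 ± 0.25 (adjusted p = 0.0074), and Cry1, a core clock repressor, by 0.58 ± 0.10 (adjusted p = 0.026). Bhlhe40, another clock repressor, had 1.38 (adjusted p = 0.13, and 0.0083 with the block). With the block 8 clock genes were higher and 1 lower, and the list's median was 0.23.

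The lipid and nuclear receptor genes showed few calls. Srebf1, a regulator of fatty acid synthesis genes and an LXR target, had 8.75, 8.19 and 8.23 in siCon and 9.43, 9.53 and 9.31 in siSHP_IFNg_GW and rose by 1.03 ± 0.15 (SE, n = 3, limma adjusted p = 0.011). It was the only 1 called of 17 LXR targets, whose median was -0.09. Abca1, the cholesterol exporter that LXR induces, had 10.01, 10.36 and 10.35 and 10.48, 10.72 and 10.62; its change of 0.37 ± 0.21 did not pass (adjusted p = 0.54). Of 15 cholesterol synthesis and uptake genes 0 were called, with a median of -0.06, and with the block Insig1, which restrains sterol synthesis, at 0.64 (adjusted p = 0.0088), and Idi1, of isoprenoid synthesis, at 0.77 (adjusted p = 0.011), were higher. Without the block their adjusted p was 0.21 and 0.69. Nrip1, a corepressor of nuclear receptors, rose by 0.82 ± 0.10 (adjusted p = 0.0047) and was the only 1 called of 23 nuclear receptors and corepressors, with a median of -0.10. Ppard, a receptor of fatty acids, had 0.74 (adjusted p = 0.096, and 0.027 with the block).

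Reactive astrocyte genes changed in both directions. Ptx3, a secreted pattern recognition molecule, had 5.92, 5.44 and 5.79 in siCon and 8.25, 8.21 and 8.96 in siSHP_IFNg_GW and rose by 2.76 ± 0.39 (SE, n = 3, limma adjusted p = 0.011). S1pr3, a receptor of sphingosine 1-phosphate, rose by 1.04 ± 0.15 (adjusted p = 0.011), and Tm4sf1, a tetraspanin-like membrane protein, fell by 1.00 (SE 0.13, adjusted p = 0.0074). Of the 21 measured genes, with a median of 0.35, these 2 rose and 1 fell. Stat3, which drives much of astrocyte reactivity, had 0.71 (adjusted p = 0.053, and 0.0049 with the block). Gfap, the intermediate filament of astrocytes, had 11.72, 11.96 and 12.04 and 11.74, 12.06 and 12.04 and a change of 0.04 ± 0.13 (adjusted p = 0.96). Other large rises were those of Tfpi2 (3.88 ± 0.68, adjusted p = 0.025), with 5.97, 5.57 and 5.07 in siCon, 1 of them under background, and 8.37, 9.44 and 10.43 in siSHP_IFNg_GW, and Pvr, an adhesion molecule and poliovirus receptor (2.89 ± 0.49, adjusted p = 0.023).

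**Figure D4:**
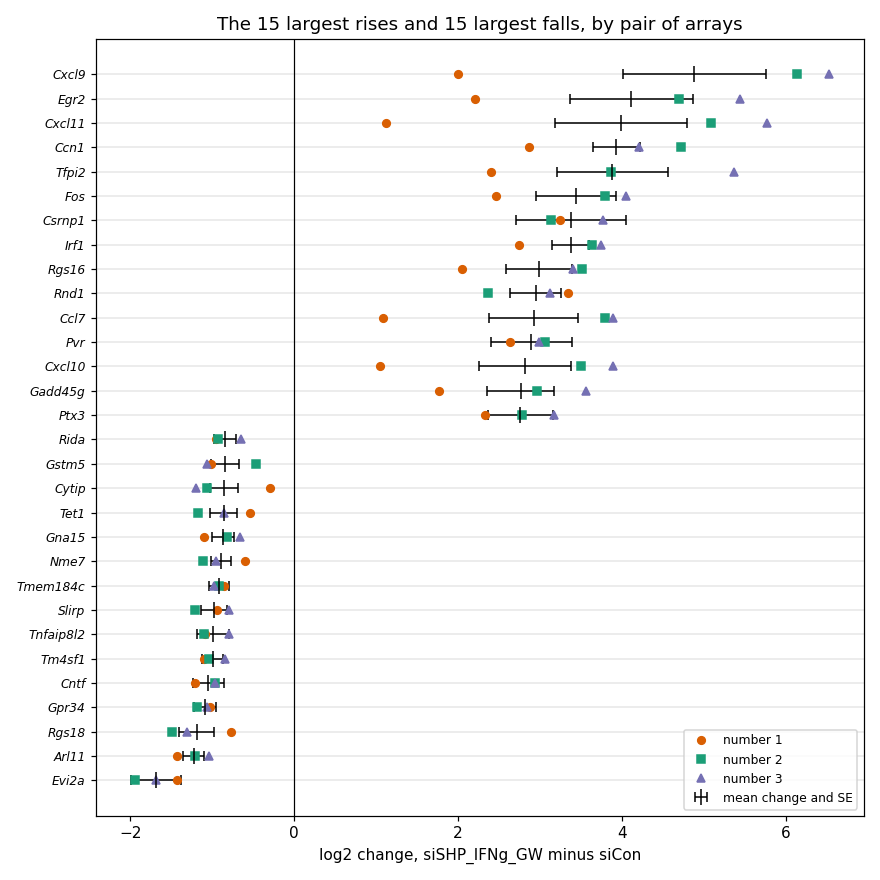
Log2 change from siCon to siSHP_IFNg_GW (x axis) within each replicate number (symbols) for the 15 largest rises and the 15 largest falls among genes that passed without overlap (y axis), with the mean change and its SE from limma. All 30 genes have the same sign in the 3 numbers, and in 13 of the 15 rises the smallest change is that of number 1.

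The falls were small against the rises. Arl11, an ARF-like GTPase known in macrophages, had 8.58, 8.31 and 8.04 on siCon replicates 1, 2 and 3 and 7.15, 7.10 and 6.99 on siSHP_IFNg_GW replicates 1, 2 and 3. All treated arrays lay well under the controls, and Arl11 fell by 1.23 (SE 0.12, n = 3, limma adjusted p = 0.0016). Gpr34, a receptor of lysophosphatidylserine on microglia, had 7.97, 7.79 and 7.62 and 6.95, 6.61 and 6.55 and fell by 1.09 (SE 0.13, adjusted p = 0.006). These 2 were the lower genes that passed in all 6 fits without 1 array. Evi2a, a membrane protein gene, fell by 1.69 (SE 0.30, adjusted p = 0.029), from 8.85, 8.54 and 8.21 to 7.42, 6.59 and 6.53. Rgs18, a regulator of G protein signals in blood cells, fell by 1.19. Gna15, a G protein subunit of blood cells, fell by 0.87, and Tnfaip8l2, an inhibitor of immune cell activation, fell by 1.00 (adjusted p = 0.029, 0.014 and 0.04). Cytip, a leukocyte adaptor, fell (adjusted p = 0.043), from 5.19, 5.80 and 5.85 to 4.89, 4.73 and 4.65. Its treated arrays and siCon replicate 1 lay under background, so the size of its fall is uncertain.

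Markers of microglia moved with this comparison. All 18 measured markers had negative changes, as had 57.6% of all genes, and their median was -0.44 against -0.03 over all genes. Of the 18, 8 had groups that did not overlap (11.9% of all genes were lower in this way). Gpr34 was the only 1 called, and with the block 11 were lower, where 0.539% and 5.34% of all genes were called lower. Tyrobp, the signalling adaptor of TREM2, had 10.03, 9.64 and 9.45 in siCon and 8.67, 9.05 and 8.98 in siSHP_IFNg_GW, a change of -0.81 (limma adjusted p = 0.055, and 0.022 with the block). Csf1r, the receptor of the growth factor encoded by Csf1, had -0.62 (adjusted p = 0.13, and 0.025 with the block), and Laptm5, a lysosomal protein of blood cells, -0.45 (adjusted p = 0.17, and 0.027 with the block). The log2 of the summed level of the markers was 12.94 to 13.61 in siCon and 12.56 to 12.83 in siSHP_IFNg_GW. On arrays of mixed cultures, fewer cells of a type and less RNA per cell cannot be told apart. The part of these markers in the falls named above, and in the changes of genes that microglia share with astrocytes, was not tested.

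The other marker lists had no calls. Of 12 astrocyte, 13 oligodendrocyte, 14 neuron and 13 meningeal and vascular markers 0 were called, with medians of -0.06, -0.11, 0.02 and -0.09. Fabp7, of immature astrocytes, had -0.35 (adjusted p = 0.086, and 0.018 with the block). Lum, a collagen-binding proteoglycan of meningeal cells, had 2.99, 6.46 and 6.40 in siCon and 3.61, 4.97 and 4.96 in siSHP_IFNg_GW, so that both arrays numbered 1 lay far under their groups. Neuron markers were above background in 8 of 14 and meningeal and vascular markers in 9 of 13. The median level of the meningeal and vascular markers was 5.87, 8.56 and 8.55 on siCon replicates 1, 2 and 3. On siSHP_IFNg_GW replicates 1, 2 and 3 it was 6.38, 8.38 and 8.21, so number 1 lay lower in both groups. For the microglia markers these medians were 9.46, 8.76 and 8.54 and 8.55, 8.24 and 8.21. The part of these levels in the calls that depend on number 1 was not tested. Of 24 cell cycle genes 1 was called, Cdca7, a chromatin remodelling cofactor of S phase, which fell by 0.64 (SE 0.13, limma adjusted p = 0.04), and the list's median was -0.11.

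Other falls lay outside the lists. Cntf, a cytokine that astrocytes make and that supports neurons, had 9.74, 9.34 and 9.25 in siCon and 8.53, 8.38 and 8.27 in siSHP_IFNg_GW and fell by 1.05 (SE 0.19, n = 3, limma adjusted p = 0.029), although it passed in 0 of the 6 fits without 1 array. Slirp, a mitochondrial RNA-binding protein gene, fell by 0.98 (adjusted p = 0.017), Rida, which removes reactive imines, fell by 0.84, and Gstm5, a glutathione transferase, fell by 0.85. Gstm5 also passed in 0 of the 6 fits without 1 array. Tet1, which oxidises methylcytosine, fell by 0.86 (adjusted p = 0.033), with 6.76, 6.87 and 6.77 in siCon and 6.22, 5.69 and 5.91 in siSHP_IFNg_GW. Tmem184c fell by 0.92 and Nme7 fell by 0.89.

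The same siSHP_IFNg_GW arrays were set directly against siCon_IFNg_GW, from which they differ by the siRNA, to see which of these changes differed from those of control siRNA with the same treatment. Over all arrays 0 genes passed (limma; 0.0%), with 416 at an unadjusted p under 0.05, and 0 passed with the block, with 972. Without replicate 1, 267 genes passed (1.47%), 246 higher (1.35%) and 21 lower (0.116%). In that fit 9 of 9 GTPases, 24 of 31 antiviral genes, 11 of 19 interferon signalling genes, 6 of 22 antigen presentation genes and 6 of 22 chemokines were higher in siSHP_IFNg_GW, and 2 of the 22 chemokines were lower. Of the 27 immediate-early genes and the 18 microglia markers 0 were called in either direction. This fit rests on 2 arrays per group. The median difference of the GTPases was 0.12 in number 1 and 2.63 in both others. For the antiviral and signalling genes it was -0.03 and 0.01 in number 1, 1.56 and 0.67 in number 2, and 1.64 and 1.22 in number 3. Single genes differed in number 1 as well: Cxcl9 had 2.29 and Gbp5 0.51 there, while Ifi47 had -0.04. The siSHP_IFNg_GW array was the higher in all 3 numbers for 13 of the 31 antiviral genes, 7 of 9 GTPases and 8 of 19 signalling genes, and for 9.82% of all genes. It was the lower in all 3 for 9 of the 18 BMP and Notch response genes, and for 17.6% of all genes.

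The levels of single genes show how the groups lay. From siCon, Irf1 differed by 2.91 in siCon_IFNg, 2.35 in siCon_IFNg_GW and 3.37 in siSHP_IFNg_GW, and these 3 values share the siCon arrays. In direct comparison with siCon_IFNg_GW it had 1.02 ± 0.23 (SE), which did not pass, and 1.37 ± 0.09 without replicate 1 (limma adjusted p = 2.31e-04). Cxcl9 differed from siCon by 5.19, -0.28 and 4.88 in the same order. Its levels were 6.75, 5.19 and 5.11 on the siCon_IFNg_GW arrays, under background in numbers 2 and 3, so the size is uncertain. The siSHP_IFNg_GW array was the higher within each number, and without replicate 1 the difference was 6.60 ± 0.18 (adjusted p = 6.51e-06). Socs1 had 3.54 (adjusted p = 6.89e-05) in that fit, Gbp2 1.80 (adjusted p = 0.0019) and Ccl7 1.73 (adjusted p = 9.87e-04). Themis2, a signalling scaffold of B cells and macrophages, rose by 1.58 ± 0.31 (SE, limma adjusted p = 0.04) from siCon and had 1.48 ± 0.31 against siCon_IFNg_GW, which did not pass. Fos differed from siCon by 0.09, 3.54 and 3.44 and from siCon_IFNg_GW by -0.11 ± 0.48, or 0.18 ± 0.20 without replicate 1 (adjusted p = 0.89). Klf6 had -0.04 ± 0.15 and Ccn1 -0.04 ± 0.29 against siCon_IFNg_GW, neither past the threshold. Over the lists, the median change from siCon of the immediate-early genes was 0.26 in siCon_IFNg, 2.25 in siCon_IFNg_GW and 1.97 in siSHP_IFNg_GW. For the GTPases it was 1.96, -0.14 and 1.73.

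Among the 196 of the 246 genes higher than in siCon_IFNg_GW without replicate 1 that have a promoter in the table, 20.4% held an ISRE match and 17.3% a GAS match, against 3.41% and 7.83% of all measured genes. The share of κB matches was also higher, at 11.2% against 4.59% of all, and that of AP-1 matches was 9.69% against 6.39%. CRE matches were present in 0.51% of them, and in 2.42% of all. Among the 493 of 600 genes higher than in siCon with the block, ISRE matches were present in 4.46%, CRE matches in 6.69% and κB matches in 7.91%. These shares are descriptions of windows of 300 bases, with no test.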

How the data were processed

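RNA of 12 arrays in 4 groups of 3 was labelled for Affymetrix whole-transcript arrays. The authors deposited log2 expression values, with 1 row per transcript cluster. The log base was inferred, as values ran from 1.01 to 13.43 (0 missing), and the background correction, summarisation and normalization are not given in the sources used here. The series text says that 4 arrays were taken over from an earlier series, and which of these they are is not known here. Array medians over all rows ran from 5.51 to 5.67, and no pair of arrays was a copy of another: at most 0.0936% of genes had identical values. Columns of other samples numbered 0.

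The annotation gave a lone gene for 18511 of 36685 rows, several genes for 575 and no gene for 17599, and 18394 were matched by Entrez ID to RefSeq (GRCr8), which changed 0 symbols. For the 291 genes with several rows, the row with the highest mean was kept, which left 18166 genes. Groups and replicate numbers came from the titles.

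The tests used limma 3.58.1 in R 4.3.3 on group means over all 12 arrays (lmFit, contrasts, eBayes), with Benjamini-Hochberg adjustment over all genes and a threshold of 0.05. The fits were tested on simulated data in which the replicate effect was the same in every group. That test did not cover changes that differ between replicate numbers. Same-numbered arrays deviated together from their group means in every pair of groups (correlations 0.63 to 0.77, 0.48 to 0.58 and 0.43 to 0.55 for numbers 1, 2 and 3). Deviations of the 3 arrays of a group balance out, so an array numbered 1 that stands apart makes numbers 2 and 3 correlate too. The correlations therefore do not show that numbers 2 and 3 were paired, and the labels state no pairing. Fits with a block of the number are printed as an alternative where they change a call. A further fit compared number 1 with numbers 2 and 3, a split chosen because earlier results of these data showed number 1 apart. Named genes were the 15 largest rises and falls that passed without overlap, the 4 members with the smallest p in each list, a set of genes fixed by name, and the 5 smallest p against siCon_IFNg_GW. A gene of the set fixed by name is not reported here. From the comparison of number 1 with the others up to 5 each way were named. The comparison, the 27 lists (22 of pathways, 5 of cell type markers) and the rule were chosen with earlier results of these data known. Promoters came from RefSeq (GRCr8). Plots were made in matplotlib 3.10.9 (Python 3.11.15). Array number limits the precision. Alternatives were centring, quantile normalization, a background filter, the mean of a gene's rows, limma with trend and robust, the 6 arrays alone, the block, and leaving out arrays.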

Additional observations from a re-analysis of the deposited data

Results flagged for a closer look

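The change from siCon to siSHP_IFNg_GW differed between number 1 and numbers 2 and 3 in 282 genes (limma adjusted p under 0.05, a test of the difference itself), or 1.55% of the genes tested. The difference was higher in number 1 for 96 genes (0.528%) and lower for 186 (1.02%), and 12 of the 218 genes of the comparison were among them. The split was set because earlier results of these data had shown the arrays numbered 1 apart, and the p-values do not allow for that choice. With only 1 array of each group in number 1, the spread in this test comes from numbers 2 and 3 of the 4 groups. The count was 132 and 82 without siSHP_IFNg_GW replicates 2 and 3 and 106 and 98 without siCon replicates 2 and 3, and 71 of the 282 passed in each of those 4 fits. The values of the named genes below are the change in number 1 minus the mean change in numbers 2 and 3.

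On the lower side, Ubd, a ubiquitin-like modifier, had -5.74 (SE 0.75, limma adjusted p = 0.015), with 5.71, 2.57 and 2.67 on siCon replicates 1, 2 and 3 and 4.97, 7.42 and 7.82 on siSHP_IFNg_GW replicates 1, 2 and 3. The siCon array numbered 1 was the highest control and the treated array of that number the lowest treated one. Replicates 2 and 3 of siCon and replicate 1 of siSHP_IFNg_GW lay under the background threshold of 5.34, so the size for Ubd is uncertain, and it passed in 1 of those 4 fits. Ifgga4l had -5.43 and Acot1, an acyl-CoA thioesterase, -4.71 (adjusted p = 0.0029 and 8.65e-04). Acot1 stood at 5.01, 5.07 and 4.93 in siCon and at 4.65, 9.14 and 9.54 in siSHP_IFNg_GW, so its treated array numbered 1 stayed at the control level. These 4 low values of Acot1 and those of Ifgga4l on siCon replicates 2 and 3 lay under background, so both sizes are uncertain. Cxcl9 had -4.33 and Cxcl11 -4.31 (adjusted p = 0.0013 and 0.0015).

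On the higher side, Cxcr5, a chemokine receptor of lymphocytes, had 2.27 and Ifnb1, which encodes interferon-β, 2.00 (limma adjusted p = 0.015 and 0.021). Both were under background on all siCon arrays, so their sizes are uncertain, and Ifnb1 reached 7.54, 5.20 and 5.51 on siSHP_IFNg_GW replicates 1, 2 and 3. Pcdh10, a protocadherin, had 2.00, the olfactory receptor gene Or6k14b 2.14 and Lum 2.09 (adjusted p = 0.0029, 0.034 and 0.017). Or6k14b lay under background on all 6 arrays, and Lum on siCon replicate 1 and on all siSHP_IFNg_GW arrays, so that their sizes are not measured. Ifnb1 passed in 1 of those 4 fits, Or6k14b in 2 and Lum in 0. The siCon array numbered 1 was also the highest control for the median of the GTPases and for Cxcl9, Cxcl10, Fos and Egr1, and the part of these levels in the differences was not tested.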

How the results depend on the processing

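The comparison with siCon gave 218 genes, 1570 with the replicate block, 1872 with number 1 as a batch block (added after the data were seen), 100 on the 6 arrays alone and 109 with centred arrays; leaving out replicates gave 0 to 1937. Quantile normalization, the background filter, the mean of rows and limma with trend and robust gave 225, 318, 219 and 221. Against siCon_IFNg_GW the count of 0 became 1 with number 1 as a batch block and ran from 0 to 267 without replicates, and it was 0 with the replicate block. The count of 282 for number 1 became 471 with centring and 715 above background, and it ran from 82 to 132 without 1 of the 4 siCon or siSHP_IFNg_GW arrays numbered 2 or 3 (added after the data were seen); leaving out replicate 2 or 3 in all groups there leaves no residual degrees of freedom. The cause of these differences was not tested. Nr0b2 was 0.0029 with centring against -0.0038. Leaving out arrays turned the sign of genes that had not passed: Cldn5 ran from -0.32 to 0.0321, Cxcr5 from -0.0298 to 1.33, Gfap from -0.0518 to 0.14, Mcm2 from -0.30 to 0.0173, Myrf from -0.37 to 0.0404, Nr0b2 from -0.16 to 0.0947 and Or6k14b from -0.63 to 0.60. Signs of the 64 named genes that had passed did not turn in any fit run.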

Other observations

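Gene families that no list covered as a whole were grouped by symbol after the falls had been seen, and they are described with no test. The proteasome family shares Psmb8, Psmb9 and Psmb10 with the antigen presentation list, so these are counted in both. Of 49 measured NADH dehydrogenase subunits, which form complex I of the respiratory chain, 46 had lower means in siSHP_IFNg_GW than in siCon, as had 57.6% of all genes. Their median change was -0.34, against -0.03 over all genes, with 2 called lower and 25 with the block, where 0.539% and 5.34% of all genes were called lower. Of 72 mitochondrial ribosomal proteins 70 were negative, with a median of -0.29, 4 called lower and 24 with the block. The 40 proteasome subunits had a median of -0.28 and 37 negative changes, with 2 called lower and 10 with the block. The 100 cytosolic ribosomal proteins had a median of -0.11, and 0 were called in the fits with and without the block. The medians of these 4 families were most negative in number 1, at -0.49 for the NADH dehydrogenase subunits against -0.31 and -0.30 in numbers 2 and 3. Their medians against siCon_IFNg_GW were between -0.04 and 0.03.

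The 22 measured histone genes had a median of 0.45, and 5 of them had negative changes. Of the 22, 2 were called higher and 11 with the block, where 0.661% and 3.3% of all genes were called higher, and without replicate 1 there were 13 higher and 2 lower. Within numbers 1, 2 and 3 the medians were 0.36, 0.45 and 0.58. Against siCon_IFNg_GW the median was -0.04.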
